A study of Mus musculus with 6 samples.

Results

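The nuclear genes for the subunits of oxidative phosphorylation were followed in healing flexor digitorum longus (FDL) tendons of mice. They were taken by gene symbol: the Nduf genes of complex I, Sdha to Sdhd of complex II, the Uqcr genes and Cyc1 of complex III, the Cox4 to Cox8 genes of complex IV and the Atp5 genes of complex V (ATP synthase). This gave 91 of the 53819 listed genes, of which 84 had enough counts to be tested. Cox6a2, Cox7a1 and Cox8b, the isoforms used by striated muscle, were kept apart, which left 81 tested subunit genes. Ndufa4 was counted with complex IV, where its protein is found, and Cox7a2l, a factor that joins complexes III and IV, was kept there by its name.

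RNA-seq libraries came from 3 DTRScxLin tendons (Scx-Cre+; DTR F/+) and 3 WT littermate tendons (Scx-Cre-; DTR F/+), with 1 tendon per library. The study's mice were 10-12 weeks old and of both sexes, and the sample labels used here do not give the sex per library. All 6 mice carried the Rosa allele of the diphtheria toxin receptor. All 6 also had the FDL tendon cut and repaired, 5 daily local injections of diphtheria toxin from D14 to D18, and harvest at D28 after surgery. Scx-Cre is not inducible, so the receptor was expressed in all cells with a history of Scx expression, and no single tendon cell type was targeted. The comparison asks how depletion of these cells in the proliferative phase of healing altered the transcriptome after the injections had ended.

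Complexes I and II pass electrons from NADH and succinate to ubiquinone, complex III passes them to cytochrome c, and complex IV passes them to oxygen. Complexes I, III and IV pump protons, and ATP synthase uses the gradient to make ATP. Most subunits are encoded in the nucleus and a few in mitochondrial DNA, and in complex IV some small subunits have one isoform for most tissues and another for heart and skeletal muscle. Skeletal muscle fibres are rich in mitochondria, and the FDL tendon joins a muscle to the digits.

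The promoters of Cox7a1 and Cox8b are shown because both genes had low counts in the same libraries, and that of Cox6a1 because it is the ubiquitous partner of Cox6a2 and had near-level counts. Cox6a2 itself had no entry in the promoter source, so the promoters of that pair could not be compared. Each is the 250 bases before the annotated start (RefSeq, GRCm38.p6), read 5′ to 3′ on the strand of the gene. Capitals mark an E-box (CAGCTG) in Cox8b, and NRF1 (GCGCANGCG) and ETS (CCGGAAG) motifs in Cox6a1, on either strand.

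Cox7a1, chr7:30183921-30184170, plus strand: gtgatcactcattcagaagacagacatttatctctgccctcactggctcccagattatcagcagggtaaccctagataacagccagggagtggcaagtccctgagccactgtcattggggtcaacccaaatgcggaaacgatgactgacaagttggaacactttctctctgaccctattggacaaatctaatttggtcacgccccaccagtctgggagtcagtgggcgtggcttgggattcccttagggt

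Cox8b, chr7:140900447-140900696, minus strand: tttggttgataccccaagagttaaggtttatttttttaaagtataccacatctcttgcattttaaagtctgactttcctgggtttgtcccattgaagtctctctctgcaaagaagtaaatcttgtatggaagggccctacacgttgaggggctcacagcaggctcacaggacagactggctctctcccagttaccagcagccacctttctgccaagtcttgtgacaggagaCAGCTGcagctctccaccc

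Cox6a1, chr5:115348959-115349208, minus strand: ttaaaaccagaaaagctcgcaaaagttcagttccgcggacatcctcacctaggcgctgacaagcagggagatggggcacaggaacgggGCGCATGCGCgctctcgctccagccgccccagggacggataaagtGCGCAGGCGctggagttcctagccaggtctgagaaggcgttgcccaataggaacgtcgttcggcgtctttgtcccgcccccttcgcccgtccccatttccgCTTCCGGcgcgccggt

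Cox7a1 held none of the motifs searched in its window, and neither did Cox7a2, its ubiquitous partner. The Cox8b E-box began 19 bases before the start, and a further one lay after the start. In Cox6a1, overlapping NRF1 motifs began 162 and 161 bases before the start, a further NRF1 motif 117 bases before it and an ETS motif 16 bases before it.

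The libraries held between 42744138 and 48854310 counts. For genes with high counts, counting noise was thus small beside the spread between tendons, and n = 3 limited the precision. Counts were scaled by edgeR's TMM factors to the mean library size ("normalized counts"), and fold changes are log2 values of DTRScxLin over WT with the standard error (SE) of the fit. The log2 median of a list is the median of its genes' log2 fold changes. The tendon markers Scx and Tnmd were high in all 6 libraries, with Scx between 2202 and 3064 normalized counts in WT and between 3407 and 3532 in DTRScxLin tendons. The receptor itself was not analysed here, so the labels were not checked by it.

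Skeletal muscle transcripts separated the DTRScxLin libraries. The 32 muscle markers, among them Myh1, Ckm and Acta1, took 3.08%, 2.83% and 2.24% of the counts of WT tendons 1 to 3. The share was 0.387%, 2.74% and 0.729% in DTRScxLin tendons 1 to 3, and no marker was at 0 in any library. DTRScxLin replicate 2 therefore stood within the WT range, and replicates 1 and 3 stood below it. In bulk tissue, fewer cells of a type and less RNA per cell cannot be told apart.

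No subunit gene passed the test between genotypes, and the values instead divided the DTRScxLin tendons from one another. Together the subunit genes without the muscle isoforms took 0.795%, 0.733% and 0.745% of the counts of the WT tendons, in the order of their numbers. In the DTRScxLin tendons this share was 0.558%, 0.808% and 0.609%. The summed subunit share in DTRScxLin replicate 2 was thus above all WT tendons, and that in replicates 1 and 3 below all of them.

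The same held gene by gene. Set against each gene's WT mean, the median log2 value over the 81 genes was 0.06, -0.07 and 0.01 in WT tendons 1 to 3. It was -0.34, 0.16 and -0.32 in DTRScxLin tendons 1 to 3. DTRScxLin replicate 1 lay below every WT library for 70 of the 81 genes, against 31.6% of all tested genes. Replicate 3 did so for 73, against 26.8%. Replicate 2 did so for 1 gene (Cox6b2), against 27.9%, and lay above every WT library for 53, against 28.3%.

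**Figure D1:**
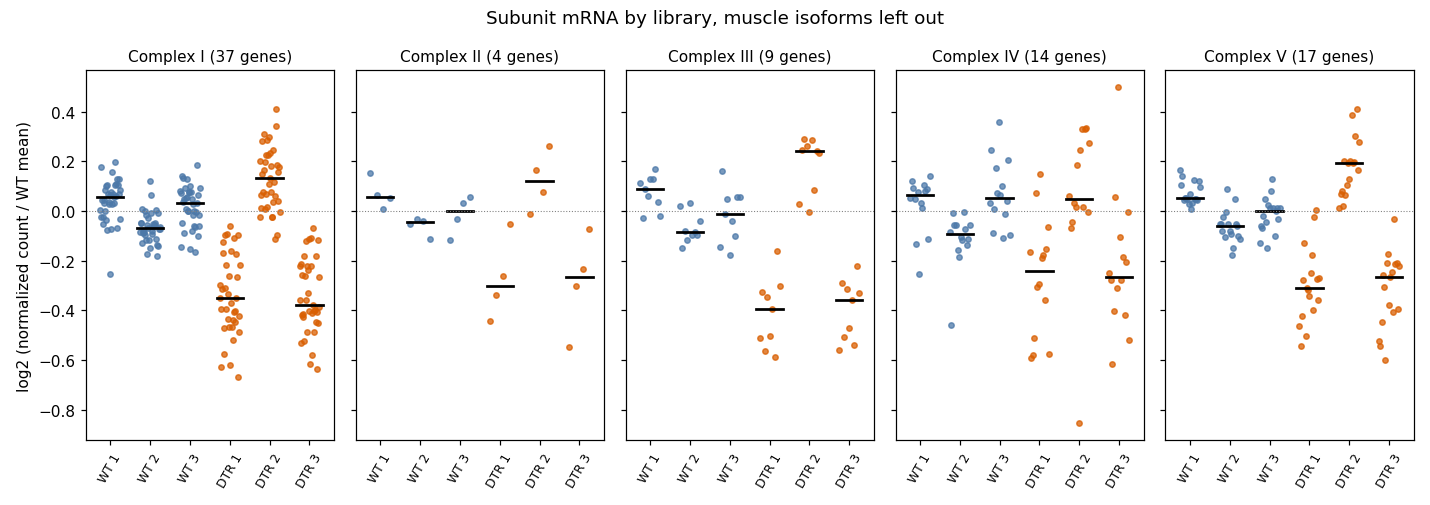
Each point is 1 subunit gene in 1 library, as the log2 ratio of its normalized count to its WT mean, for the 5 complexes without the muscle isoforms; bars are medians, blue is WT and orange DTRScxLin. In complex I the medians of DTRScxLin replicates 1 and 3 are -0.35 and -0.38 while that of replicate 2 is 0.13.

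Between the genotypes, edgeR's quasi-likelihood test with Benjamini-Hochberg adjustment over 17496 genes called 0 of the 84 tested subunit genes, and 0.0% of all genes as lower and 0.0% as higher. DESeq2 also called 0 subunit genes, against 1.53% of all genes called lower. At an unadjusted p under 0.05, 4 subunit genes were lower, among them Ndufs7, Cox5a and Ndufb9, and 0 were higher, against 5.45% of all genes lower. No subunit gene had all DTRScxLin libraries below all WT libraries, against 7.85% of all tested genes.

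The fitted values leaned to the low side by a small amount. Of the 81 genes, 69 had a log2 fold change below 0 (72 of 84 with the muscle isoforms), against 48.5% of all tested genes, and their median was -0.14, against 0.01 over all genes. Only 18 were below -0.25, and 26 lay between -0.1 and 0.1. The median depended on which DTRScxLin tendon was in the fit: it was -0.07 without replicate 1, -0.32 without replicate 2 and -0.07 without replicate 3.

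Without DTRScxLin replicate 2, edgeR called 17 of the 84 subunit genes lower and 0 higher, against 2.45% of all tested genes called lower. They were the 3 muscle isoforms and 14 others: Ndufs7, Ndufb5, Ndufa12, Ndufb9, Ndufa5, Ndufa6 and Ndufb10 of complex I, Uqcrfs1, Cyc1 and Uqcr11 of complex III, Cox5a, Cox5b and Ndufa4 of complex IV, and Atp5g1 of complex V. Without any other single library, 0 were called. The fit without replicate 2 rests on 2 DTRScxLin tendons, both with few muscle transcripts.

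Complex I, the NADH dehydrogenase, had 37 tested genes, with a log2 median of -0.17 and fitted values below 0 in 33. The 7 core subunits, which carry the flavin, most iron-sulfur clusters and the quinone site, had a median of -0.23, and the 30 accessory subunits -0.15. Ndufs7, the subunit next to the quinone site, had the lowest fitted value of the complex. Its normalized counts were 2002, 1855 and 1736 in WT and 1174, 1741 and 1200 in DTRScxLin tendons. Replicates 1 and 3 lay below all WT tendons and replicate 2 just above the lowest of them, so the groups overlapped. The log2 fold change was -0.44 ± 0.16 (SE, n = 3 per group, edgeR adjusted p = 0.420).

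Ndufs1 and Ndufv1, which hold the electron entry chain from NADH, had values of -0.23 ± 0.16 and -0.28 ± 0.15 (SE). At the other end stood Ndufs5, with 490, 395 and 458 counts in WT and 397, 595 and 395 in DTRScxLin tendons and a log2 fold change of 0.05 ± 0.20 (SE). Ndufs8, also a core subunit, was near level at -0.01 ± 0.11 (SE).

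Complex II links the tricarboxylic acid (TCA) cycle to the chain and has 4 subunits, all nuclear. Sdha, the flavoprotein, had 11686, 10149 and 9706 counts in WT and 7731, 10436 and 7194 in DTRScxLin tendons, a log2 fold change of -0.31 ± 0.16 (SE, edgeR adjusted p = 0.489). Sdhb, the iron-sulfur subunit, had -0.14 ± 0.14 and Sdhc, a membrane anchor, -0.13 ± 0.11 (SE). The second anchor, Sdhd, read 5095, 4539 and 5109 in WT and 4737, 5885 and 4673 in DTRScxLin tendons, and its log2 fold change was 0.05 ± 0.11 (SE). For Sdhd, replicates 1 and 3 lay inside the WT range and replicate 2 above it.

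In complex III, all 9 tested genes had fitted values below 0. The 4 redox and core subunits (Cyc1, Uqcrfs1, Uqcrc1 and Uqcrc2) had a log2 median of -0.31, and the 5 small subunits -0.11. Cyc1, which encodes cytochrome c1, had 3672, 3445 and 3065 counts in WT and 2378, 3457 and 2305 in DTRScxLin tendons, a log2 fold change of -0.32 ± 0.17 (SE, edgeR adjusted p = 0.506). Uqcrfs1, the Rieske iron-sulfur protein, and Uqcrc1, a core protein, were alike at -0.31 ± 0.19 and -0.31 ± 0.15 (SE). The hinge protein Uqcrh was closest to level, with 7459, 6814 and 7575 counts in WT and 6505, 8608 and 6237 in DTRScxLin tendons and a log2 fold change of -0.03 ± 0.14 (SE). Every complex III gene was lower than all WT tendons in replicate 1 and in replicate 3, and 6 of 9 were higher than all WT tendons in replicate 2.

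Complex IV, cytochrome c oxidase, had 14 tested genes apart from the muscle isoforms, with 11 fitted values below 0 and a log2 median of -0.11. Cox5a, which with Cox4 forms the early core of the enzyme, had 3868, 3604 and 3408 counts in WT and 2423, 3514 and 2368 in DTRScxLin tendons. Replicate 2 was in the WT range and the others were below it, and the log2 fold change was -0.39 ± 0.16 (SE, edgeR adjusted p = 0.449). Its neighbour Cox4i1, with the most counts in the complex, had a smaller value of -0.11 ± 0.11 (SE): 11805, 10748 and 11651 counts in WT against 10165, 11888 and 9575.

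Cox6c had the highest fitted value of all 84 genes, 0.10 ± 0.11 (SE, edgeR adjusted p = 0.745), with 6151, 5594 and 6291 counts in WT and 6672, 7127 and 5587 in DTRScxLin tendons. Isoforms known from other tissues were scarce. Cox4i2, the isoform of lung and oxygen-sensing cells, had between 96.0 and 157 counts in WT and between 87.6 and 126 in DTRScxLin tendons. Cox6b2, the testis isoform, had between 46.7 and 71.7 counts in WT and between 30.6 and 79.1 in DTRScxLin tendons, and its groups overlapped widely. Ndufa4l2, a hypoxia-induced relative of Ndufa4 outside the gene set, had a log2 fold change of -0.03 ± 0.14 (SE).

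The muscle isoforms showed the same division of the tendons on a larger scale. Cox6a2 had 4060, 3959 and 2431 counts in WT and 583, 3418 and 857 in DTRScxLin tendons. Cox7a1 had 1653, 1421 and 1058 counts in WT and 178, 1265 and 246 in DTRScxLin tendons. Cox8b had 1446, 1391 and 979 counts in WT and 210, 1257 and 326 in DTRScxLin tendons. For each of them replicate 2 fell inside the WT range and replicates 1 and 3 far below it, so the groups overlapped.

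Their log2 fold changes were -1.10 ± 0.78 for Cox6a2, -1.29 ± 0.86 for Cox7a1 and -1.09 ± 0.76 for Cox8b (SE, n = 3 per group), with edgeR adjusted p-values of 0.631, 0.612 and 0.623. Without DTRScxLin replicate 2 these were -2.27, -2.70 and -2.24, with edgeR adjusted p-values of 0.0462, 0.00791 and 0.0190.

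**Figure D2:**
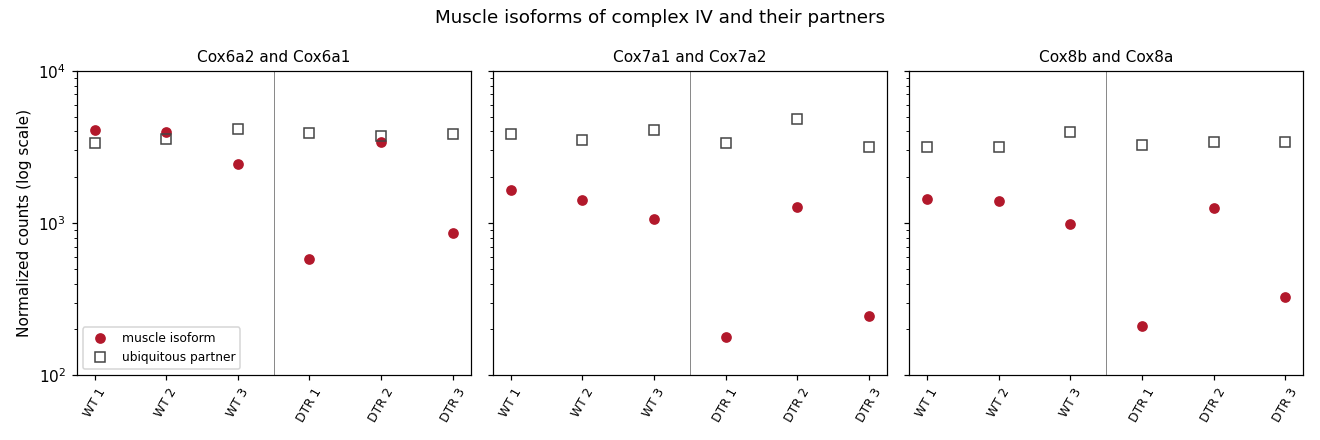
Normalized counts on a log axis in each library for the 3 muscle isoforms of complex IV (filled) and their ubiquitous partners (open). The muscle isoforms are lowest in DTRScxLin replicates 1 and 3, at 583 and 857 for Cox6a2, while Cox6a1 stays between 3364 and 4165 in all 6 libraries.

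The ubiquitous partners differed little between genotypes. Cox6a1 had 3364, 3543 and 4165 counts in WT and 3881, 3726 and 3837 in DTRScxLin tendons, a log2 fold change of 0.05 ± 0.10 (SE). Cox8a had 3163, 3164 and 3947 counts in WT and 3277, 3410 and 3416 in DTRScxLin tendons, a log2 fold change of -0.02 ± 0.11 (SE). In both genes the 3 DTRScxLin tendons lay inside the WT range. Cox7a2 behaved more like the other subunits, with 3843, 3520 and 4087 counts in WT and 3342, 4799 and 3150 in DTRScxLin tendons and a log2 fold change of -0.02 ± 0.17 (SE).

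Per kb of annotated exon (GENCODE vM21), the muscle isoforms were a large part of each pair in most tendons. Cox6a2 stood at 125%, 115% and 60.3% of Cox6a1 in WT and at 15.5%, 94.7% and 23.1% in DTRScxLin tendons. Cox7a1 stood at 75.9%, 71.2% and 45.7% of Cox7a2 in WT and at 9.41%, 46.5% and 13.8% in DTRScxLin tendons. Cox8b stood at 78.6%, 75.6% and 42.7% of Cox8a in WT and at 11.0%, 63.4% and 16.4% in DTRScxLin tendons. In each pair WT replicate 3 had the smallest muscle part of the WT tendons.

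As a log2 ratio of counts, the difference between genotypes was -1.56 for Cox6a2 over Cox6a1, -1.78 for Cox7a1 over Cox7a2 and -1.49 for Cox8b over Cox8a. Each had p = 0.2 in a two-sided exact permutation test and p = 0.2 after adjustment over the 3 pairs, where 0.1 is the smallest p that 3 against 3 allows. The SD of the ratio was 0.40 to 0.58 in WT and 1.20 to 1.37 in DTRScxLin tendons.

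Complex V had 17 tested genes with a log2 median of -0.13. The 5 genes of the F1 head and stalk, where ATP is made, had a median of -0.24 and all were below 0. Atp5b, the catalytic beta subunit and the gene with the most counts in the set, had 33355, 29939 and 29755 counts in WT and 21264, 32484 and 21258 in DTRScxLin tendons, a log2 fold change of -0.31 ± 0.18 (SE, edgeR adjusted p = 0.543). Atp5a1, the alpha subunit, had -0.31 ± 0.17 (SE). The 4 genes of the peripheral stalk, which holds the head in place, had a median of -0.13, and the 5 small membrane subunits 0.02.

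The c subunit that forms the rotor ring is encoded by 3 genes that differ in their import signal. Atp5g1 was the lowest gene of the complex, with 2063, 1985 and 1929 counts in WT and 1406, 2082 and 1315 in DTRScxLin tendons, a log2 fold change of -0.31 ± 0.17 (SE, edgeR adjusted p = 0.518). Atp5g2 and Atp5g3 had -0.13 ± 0.15 and -0.08 ± 0.13 (SE). Atp5l, subunit g of the membrane part, had the highest value of the complex, 0.05 ± 0.13 (SE), with between 407 and 452 counts in WT and between 426 and 501 in DTRScxLin tendons. Small subunits such as Atp5l, Atp5g2, Ndufb4 and Ndufs5 have near-identical processed copies in the genome, and how reads shared with them were counted is not given in the sources used here, so their levels are uncertain.

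**Figure D3:**
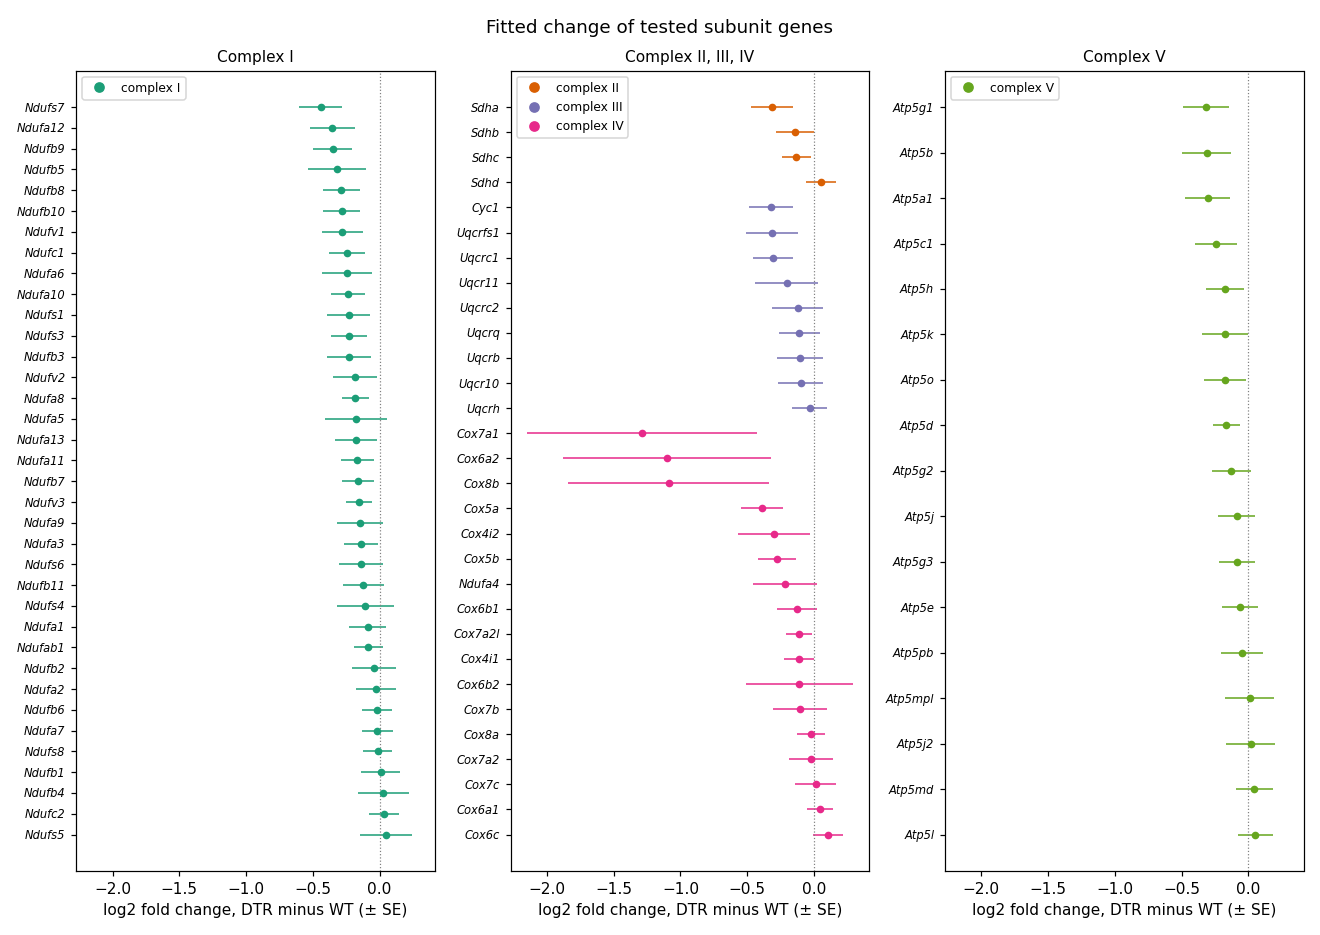
Log2 fold change of DTRScxLin over WT with its standard error for the tested subunit genes reported here, by complex. Cox7a1, Cox6a2 and Cox8b stand apart at -1.29, -1.10 and -1.09, and the others lie between -0.44 and 0.10.

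The 7 members below the limit for testing were Cox7b2, Cox8c, Cox6c2, Ndufs6b, Ndufb4c, Ndufb11b and Ndufa11b. None reached 10 counts in any library, and Cox8c and Ndufb11b were listed at 0 in all 6.

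The subunits encoded in mitochondrial DNA were low in the same libraries as the nuclear ones. Of 13 genes, 7 could be tested. Their log2 median was -0.31, and 6 had fitted values below 0. mt-Co1, the catalytic subunit of complex IV, had 559164, 536682 and 489165 counts in WT and 369684, 587042 and 367808 in DTRScxLin tendons, a log2 fold change of -0.26 ± 0.23 (SE). mt-Nd2, a proton pump subunit of complex I, was lowest at -0.53 ± 0.22 (SE, edgeR adjusted p = 0.452), and mt-Nd6, which is encoded on the other strand, highest at 0.13 ± 0.31 (SE). Replicate 1 lay below all WT tendons for 7 of these genes, replicate 3 for 6 and replicate 2 for 0. mt-Co2, mt-Co3, mt-Atp8 and mt-Nd4l were listed at 0 in all libraries beside neighbours with very high counts, so their zeros are no measurement of expression, and mt-Atp6 and mt-Nd3 were listed at 0 or with few counts in nearly all libraries.

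Other genes of mitochondrial energy use were counted from lists of enzymes and factors. edgeR called 0 of their 191 tested genes, with 12 lower and 1 higher at an unadjusted p under 0.05, against 5.45% of all genes lower. DESeq2 called 2 as lower, Ogdh and Ppargc1a, against 1.53% of all genes, so both counts were near or below the share over all genes. All 18 TCA cycle and pyruvate dehydrogenase genes had fitted values below 0. Their log2 median was -0.22, and the highest was Dlst at -0.01 ± 0.08 (SE). Ogdh, a subunit of 2-oxoglutarate dehydrogenase, had 11902, 11560 and 10245 counts in WT and 7979, 9226 and 6777 in DTRScxLin tendons, and all DTRScxLin tendons lay below all WT tendons. Its log2 fold change was -0.49 ± 0.13 (SE, edgeR adjusted p = 0.333).

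The ATP carriers showed a division like that of the complex IV isoforms. Slc25a4, the adenine nucleotide carrier of heart and muscle, had 29298, 26077 and 24672 counts in WT and 14447, 29629 and 15057 in DTRScxLin tendons. Slc25a5, the carrier of most other tissues, had 6330, 4882 and 5751 counts in WT and 6404, 6008 and 5912 in DTRScxLin tendons. Their log2 fold changes were -0.44 ± 0.29 and 0.11 ± 0.11 (SE), and neither passed the test. The lowest of the 11 tested genes of this list with at least 50 counts on average was Ckmt1, a mitochondrial creatine kinase, at -3.24 ± 2.38 (SE), with 521 and 242 counts in WT replicates 1 and 2 and at most 80.2 in any other library. These counts followed the keratinocyte genes, which took 0.324%, 0.197% and 0.003% of counts in WT and 0.001%, 0.003% and 0.030% in DTRScxLin tendons, and not the muscle genes, and the part of keratinocytes in them was not tested.

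The assembly factors and the genes of the mitochondrial ribosome had medians near 0. The 48 tested assembly factors had a log2 median of 0.00, with 24 below and 24 above 0, from Ecsit, a complex I assembly factor, at -0.33 ± 0.17 to Ndufaf2 at 0.23 ± 0.12 (SE). The 77 tested genes of the mitochondrial ribosome had a median of -0.01, between Mrpl14 at -0.30 ± 0.14 and Mrpl33 at 0.22 ± 0.12 (SE). The 15 genes of fatty acid oxidation leaned low like the subunits, with a median of -0.13, 13 below 0 and a lowest value of -1.24. Those with at least 50 counts on average ran from Acadm, medium-chain acyl-CoA dehydrogenase, at -0.39 ± 0.12 to Cpt1a at 0.09 ± 0.13 (SE). These medians were not tested against that of the subunits.

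**Figure D4:**
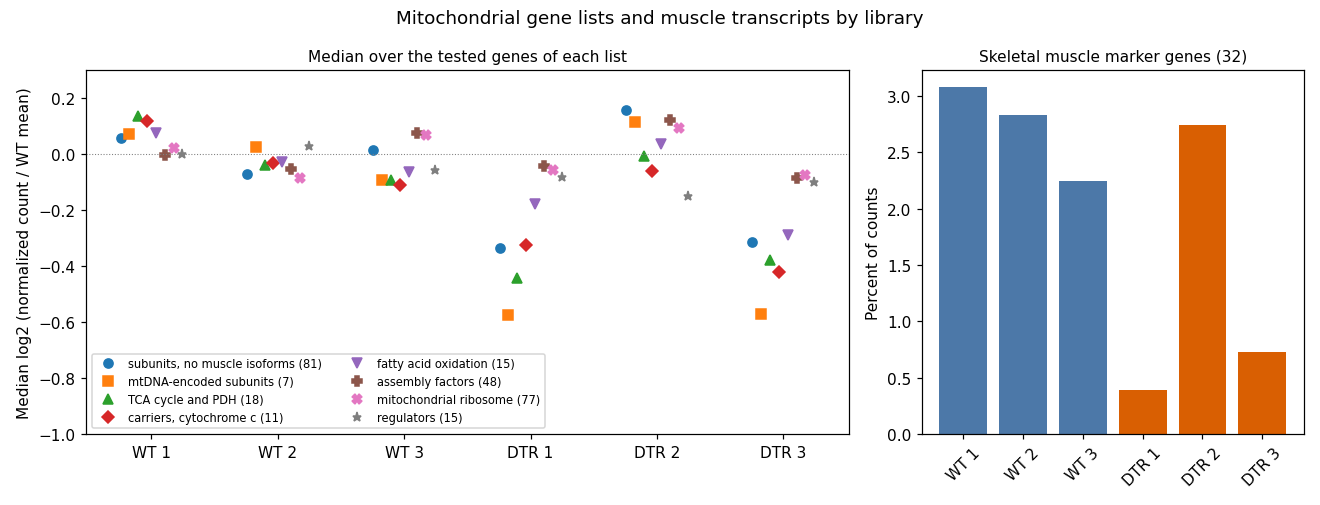
Left, the median over each list's tested genes (number in the key) of the log2 ratio of normalized count to WT mean, in each library; right, the percent of counts on the 32 skeletal muscle marker genes, with WT in blue and DTRScxLin in orange. In DTRScxLin replicates 1 and 3, mtDNA-encoded subunits are at -0.58 and -0.57 and assembly factors at -0.04 and -0.09, and the muscle share is 0.387% and 0.729%.

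Among 15 regulators of these genes, 6 had all DTRScxLin tendons below all WT tendons (Ppargc1a, Ppargc1b, Perm1, Esrra, Esrrb and Polrmt), against 7.85% of all tested genes. A further 2 (Gabpa and Tfb1m) had all above, against 8.96%. Ppargc1a, the coactivator PGC-1 alpha, had 775, 586 and 364 counts in WT and 130, 327 and 110 in DTRScxLin tendons, a log2 fold change of -1.60 ± 0.51 (SE, edgeR adjusted p = 0.398). Perm1, a muscle gene that acts with PGC-1 alpha, had 1168, 1307 and 577 counts in WT and 97.9, 488 and 91.5 in DTRScxLin tendons, a log2 fold change of -2.17 ± 0.85 (SE, edgeR adjusted p = 0.460). In both, replicate 2 was the highest DTRScxLin tendon and still below WT. Gabpa, the ETS factor of many subunit promoters, had between 3403 and 3430 counts in WT and between 3536 and 4195 in DTRScxLin tendons, a log2 fold change of 0.19 ± 0.09 (SE), and Nrf1 was near level at -0.05 ± 0.08 (SE).

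The muscle markers were low in the same libraries as the subunits. Of the 32 markers, 31 had fitted values below 0, against 48.5% of all tested genes, and 6 had all DTRScxLin tendons below all WT tendons, against 7.85%. The log2 median of the markers was -1.15. Ckm, muscle creatine kinase, had 66836, 46313 and 38297 counts in WT and 6032, 47422 and 9956 in DTRScxLin tendons. Acta1, skeletal actin, had 100810, 121429 and 101080 counts in WT and 21994, 152697 and 47308 in DTRScxLin tendons.

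The myosin heavy chains of fast fibres, Myh1, Myh2 and Myh4, had log2 fold changes of -1.26 ± 0.80, -1.24 ± 0.90 and -1.68 ± 0.84 (SE). Myh7 of slow fibres had -1.52 ± 0.88 (SE), the lowest of the 6 slow-fibre genes. Those had a log2 median of -0.75, with 5 below 0 and 1, Tnni1, above at 0.36 ± 0.77 (SE). The 9 fast-fibre genes had a median of -1.24, and all were below 0. With the muscle level of each library as a covariate, the median of the 81 subunit genes became 0.11 in place of -0.14, and Cox6a2, Cox7a1 and Cox8b became -0.06, -0.21 and -0.07, with 0 subunit genes called. How much of the subunit values came from muscle in the sample was not tested.

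Other cell types divided the libraries in differing ways. By share of counts, the adipocyte and tendon genes also had DTRScxLin replicate 2 as the DTRScxLin tendon closest to WT. The 10 adipocyte genes had a log2 median of -2.27. They took 0.0223%, 0.0287% and 0.0295% of counts in WT and 0.0132%, 0.0214% and 0.0158% in DTRScxLin tendons. Replicate 2 was thus the highest DTRScxLin tendon and still below WT. In all DTRScxLin tendons, replicate 2 included, 8 of the 10 genes were below all WT tendons, against 7.85% of all tested genes. edgeR called 0 of them, with 9 lower at an unadjusted p under 0.05, and DESeq2 called 5 lower, against 1.53% of all genes. Adipoq (adiponectin) had between 96.4 and 273 counts in WT and between 17.5 and 62.2 in DTRScxLin tendons. Ucp1, which defines brown fat, had at most 9.1 counts in any library and was not tested. The 3 tested genes of the brown adipocyte list had a log2 median of -2.06, with 2 below 0 and 1 above, and edgeR called 0. Among them, Cidea had 242, 166 and 33.3 counts in WT and 9.28, 38.3 and 57.5 in DTRScxLin tendons. The 13 keratinocyte genes were high in WT replicates 1 and 2 and scarce elsewhere, as given beside Ckmt1, and up to 5 of them were at 0 in a library. The macrophage and endothelial genes had medians of 0.04 and -0.11, and the 11 tendon genes 0.30. The tendon genes took 4.51%, 4.90% and 5.29% of counts in WT and 6.28%, 5.11% and 5.98% in DTRScxLin tendons. Their median log2 value against the WT mean was 0.28, 0.26 and 0.30 in DTRScxLin tendons 1 to 3. Of these genes, 9 had fitted values above 0 and 2 below. All DTRScxLin tendons lay above all WT tendons for 3, against 8.96% of all tested genes, and edgeR called 0. The part of these cell types in the subunit values was not tested.

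The promoter windows of the subunit genes held motifs of the known mitochondrial factors. Windows of 300 bases, from 250 before to 50 after the start, were matched for 67 of the 81 genes and for 27025 genes in all. Shares are of genes, and a gene counted as holding a motif if any of its windows did. The NRF1 motif was in 29.9% of the subunit genes against 7.03% of all genes with a window, and the ETS motif in 25.4% against 9.93%. The YY1 motif (AANATGGCG) was in 14.9% against 2.76%, and the ERR motif (AAGGTCA), bound by the estrogen-related receptors, in 11.9% against 5.38%. The E-box CAGCTG, a common site of myogenic factors, was in 7.46% against 18.3%, and the MEF2 motif in 0.0% against 3.7%. The motifs were searched on both strands, a match is no evidence of binding, and the shares were not tested. The 67 subunit genes all had enough counts to be tested here, while the 27025 genes were not limited in this way, so the sets are unlike. Cox8a held 2 ETS motifs and Cox7a2 held none of the motifs searched.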

How the data were processed

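Titles in the labels place D28 after depletion, and the time after surgery from the methods was used. RNA-seq libraries were made from 200 ng of total RNA of 6 tendons. The study's methods name the TruSeq Stranded mRNA kit, to which the labels add a SMARTER kit. The authors deposited the reads counted per gene as raw counts, and also a table of normalized signal, which was checked to be the counts divided by 1 DESeq2 (1.22.1 in the submitters' processing notes) size factor per library. The aligner, build, annotation and strand setting are not given in the sources used here, so overlapping and antisense genes are uncertain.

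Counts were tested in R 4.3.3 with edgeR 4.0.16 (filterByExpr, TMM, robust quasi-likelihood fit on genotype, Benjamini-Hochberg over all genes, threshold 0.05). Alternatives used DESeq2 1.42.0, limma 3.58.1 and other scalings and filters. The tests were tested on data simulated at the depth of these libraries. Among genes given a log2 change of 1 in either direction, edgeR called 43 of 96, and of 2, 70 of 96. It made 10 false calls, which are calls of genes given no change. DESeq2 called 59 of 100 and 83 of 100, with 65 false calls. Isoform ratios used counts plus 0.5. Gene lengths came from GENCODE vM21 and promoters from RefSeq (GRCm38.p6), matched by symbol. The members and lists were chosen with earlier results of these data known. By rule, the text names the complex IV isoform pairs, in each complex the tested genes of at least 50 normalized counts with the highest and lowest fold change and the most counts, fixed subunits of each complex, scarce isoforms, the highest and lowest gene of each list, and muscle genes. Ogdh, Ppargc1a, Ndufs8, the Slc25a4 and Slc25a5 pair, the genes called without 1 library and other genes were named after their values were seen. A few genes that this rule takes are not reported here.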

Additional observations from a re-analysis of the deposited data

How the results depend on the processing

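Depth was not varied, so how far it limited these results was not tested. Each genotype had 3 tendons, and 7 members had too few counts to be tested. The median of the 81 subunit genes lay between -0.17 and -0.13 under RLE, upper quartile and library size scaling, no filter, at least 10 counts in every library, DESeq2, limma-voom, the deposited normalized counts in limma, the replicate block and removal of a length and GC trend (chosen after seeing the data). All of these called 0 subunit genes except the trend removal, for which no test was run. The median was 0.11 with the muscle level as covariate, and between -0.32 and -0.07 without 1 library. Leaving out 1 library moved the number of subunit genes called between 0 and 17 and that of other pathway genes between 0 and 10, the higher counts without DTRScxLin replicate 2. DESeq2 called 2 other pathway genes.

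Without 1 library, the log2 fold change of Cox6a2 lay between -2.27 and -0.71, of Cox7a1 between -2.70 and -0.87 and of Cox8b between -2.24 and -0.69. The isoform ratios lay between -2.33 and -1.03 for Cox6a2/Cox6a1, between -2.46 and -1.31 for Cox7a1/Cox7a2 and between -2.23 and -0.97 for Cox8b/Cox8a.

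The sign of 10 of the 27 named subunit genes changed with the muscle covariate, among them genes well below 0 without it, such as Atp5g1 (-0.31), Uqcrfs1 (-0.31) and Atp5b (-0.31). The cause was not tested. With the covariate the log2 fold changes were Cox6a1 -0.010, Cox7a2 0.26, Uqcrh 0.19, Cox4i1 0.023, Atp5g1 0.0090, Atp5b 0.025, Ndufs1 0.071, Ndufv1 0.011, Sdhb 0.13 and Uqcrfs1 0.052. With the length and GC trend removed they were Cox7a2 0.022, Cox8a 0.043 and Atp5l -0.052. Without 1 library, Cox6a1 lay between -0.014 and 0.14, Ndufs5 between -0.18 and 0.15, Sdhd between -0.061 and 0.11, Cox7a2 between -0.23 and 0.095, Cox8a between -0.078 and 0.088, Cox6b2 between -0.55 and 0.16, Uqcrh between -0.19 and 0.055 and Atp5l between -0.027 and 0.094.

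The labels number the replicates of both genotypes alike, but same-numbered tendons did not deviate together (r across genes -0.19, -0.15 and -0.68), so the numbers were not taken as pairs. With the replicate number as a block, the median was -0.16, and 0 subunit genes and 0 other pathway genes were called. Cox6a2, Cox7a1 and Cox8b were -1.50, -1.83 and -1.50. The isoform ratios were the same with p = 0.25 by an exact sign permutation. That is the smallest p this permutation allows, so it could not have shown a difference at the threshold.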
